A study of Mus musculus with 8 samples.

Results

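The genes described here encode parts of telomerase and of shelterin, the complex that binds chromosome ends, and associated factors. They were taken by name, with no measured value in the rule: Tert and Dkc1 of telomerase, Terf1, Terf2, Pot1a, Pot1b, Tinf2 and Acd of shelterin, and the associated factors Rif1 and Rtel1. These 10 genes were 10 of the 22878 gene entries in the expression files, with 1 entry each, and all 10 passed the filter on low values. The study asked whether induced pluripotent stem cells (iPSCs) made from different tissues carry the transcriptome of embryonic stem cells (ESCs), and sequenced RNA from 5 mouse lines. R1 is an ESC line, and 16-6, 32, S8 and T2 are secondary iPSC lines. There were 8 libraries, 2 replicates for each of R1, 16-6 and 32 and a single library for each of S8 and T2.

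The 4 iPSC lines came from adult all-iPSC mice, which were made through tetraploid complementation from a line with doxycycline-inducible Oct4, Sox2, c-Myc and Klf4. Line 16-6 was made from hematopoietic progenitors, line 32 from adipocyte progenitors, S8 from epidermal cells and T2 from the stomach lining. The somatic cells were exposed to doxycycline, colonies were picked after its withdrawal, and each line is thus 1 derivation from 1 tissue. The tissue of origin and the line cannot be told apart. R1 was not derived from these mice, so line history, transgenes and genetic background cannot be told apart in any comparison with R1. All 5 lines were cultured with LIF, the cytokine that keeps mouse ESCs undifferentiated, on feeder fibroblasts blocked from dividing by mitomycin C.

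Telomeres are the repeats that cap chromosome ends, and they shorten at each division unless the enzyme telomerase adds repeats back. Telomerase joins the reverse transcriptase TERT to an RNA template, and dyskerin, the product of Dkc1, stabilises that RNA. Shelterin coats the repeats: TRF1 (Terf1) and TRF2 (Terf2) bind the double strand, POT1 proteins bind the single-stranded overhang, and TIN2 (Tinf2) and TPP1 (Acd) join both sides and recruit telomerase. ESCs keep telomerase active, and reprogramming of somatic cells to iPSCs reactivates it.

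Expression is given as FPKM, a fragment count set against transcript length and library size, with Cufflinks confidence limits, and all values were divided by the same constant. Differences between lines are on the log2(FPKM + 1) scale, given with a standard error (±) from limma, and an adjusted p is the Benjamini-Hochberg value over 13693 genes. A gene was called when its adjusted p was below 0.05 and it differed by at least 2-fold. The upper quartile of FPKM was 16.3 to 17.6 over the 8 libraries. Read as counting error only, the confidence limits imply 15479699 to 16680829 fragments per library. The summed FPKM of all genes was less alike, at 949513 and 1008700 in R1, 1259520 and 1214860 in 32 and 899033 in T2. The sums over gene lists given below are not set to equal totals. By the fragments implied in this way, which are not read counts, the libraries were alike. There were 16503645 in S8, 16680829 in T2 and 15479699 to 16385998 in the other libraries. The read counts listed by the study set S8 and T2 apart, with several times more reads and a lower share mapped. The reason for this mismatch was not tested, and the sequencing of these libraries and the line cannot be told apart. All 8 pluripotency markers examined, among them Pou5f1, Sox2 and Nanog, were detected in each library. Their summed FPKM was 1876 to 1902 in 16-6, 2466 in T2, 2847 to 2903 in 32, 2943 to 3026 in R1 and 3473 in S8. The sum hides opposite moves, as in S8 2 markers were higher and 4 lower than in R1 by adjusted p from limma. FPKM in S8 and R1 was 1020 and 620 for Pou5f1 and 1193 and 434 for Utf1. It was 80.8 and 176 for Nanog, 119 and 542 for Zfp42 and 60.2 and 179 for Esrrb. The summed FPKM of 10 fibroblast markers, such as Col1a1 and Thy1, was 1036 to 1147 in R1, 1958 to 1980 in 16-6, 89.2 to 89.7 in 32, 469 in S8 and 613 in T2, and none of the 10 was at 0. The markers did not move together: in 16-6 against R1, 5 were called higher and 2 lower. Mean FPKM in R1 and 16-6 was 177 and 583 for Col1a1, but 210 and 33.1 for Dcn and 54.9 and 7.49 for Lum. Fibroblast marker RNA thus differed between lines, and its part in the differences below was not tested. In such bulk samples, fewer cells of a type and less RNA per cell cannot be told apart.

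All 10 telomere genes were expressed in every library of every line, and most differences between lines were modest. Line 16-6 was low for Tert, Terf1, Pot1a, Rif1 and Rtel1. By the scaling used, line 32 was close to R1 apart from higher Dkc1, Pot1b and Rif1. The Pot1b difference passed in 8 of 16 alternatives. With every library scaled to the same total, 1 of the 10 was higher and 5 lower in 32, against 7.76% and 55.1% of all genes. S8 and T2 had more Tinf2, Acd and Terf2 and less Terf1 and Rif1 than R1. The summed FPKM of the 10 genes was 539 to 544 in R1, 415 to 416 in 16-6, 650 to 666 in 32, 494 in S8 and 506 in T2. Rif1, Dkc1 and Terf1 add the most to this sum. It is not set to equal library totals, and the 32 libraries had the highest totals.

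**Figure D1:**
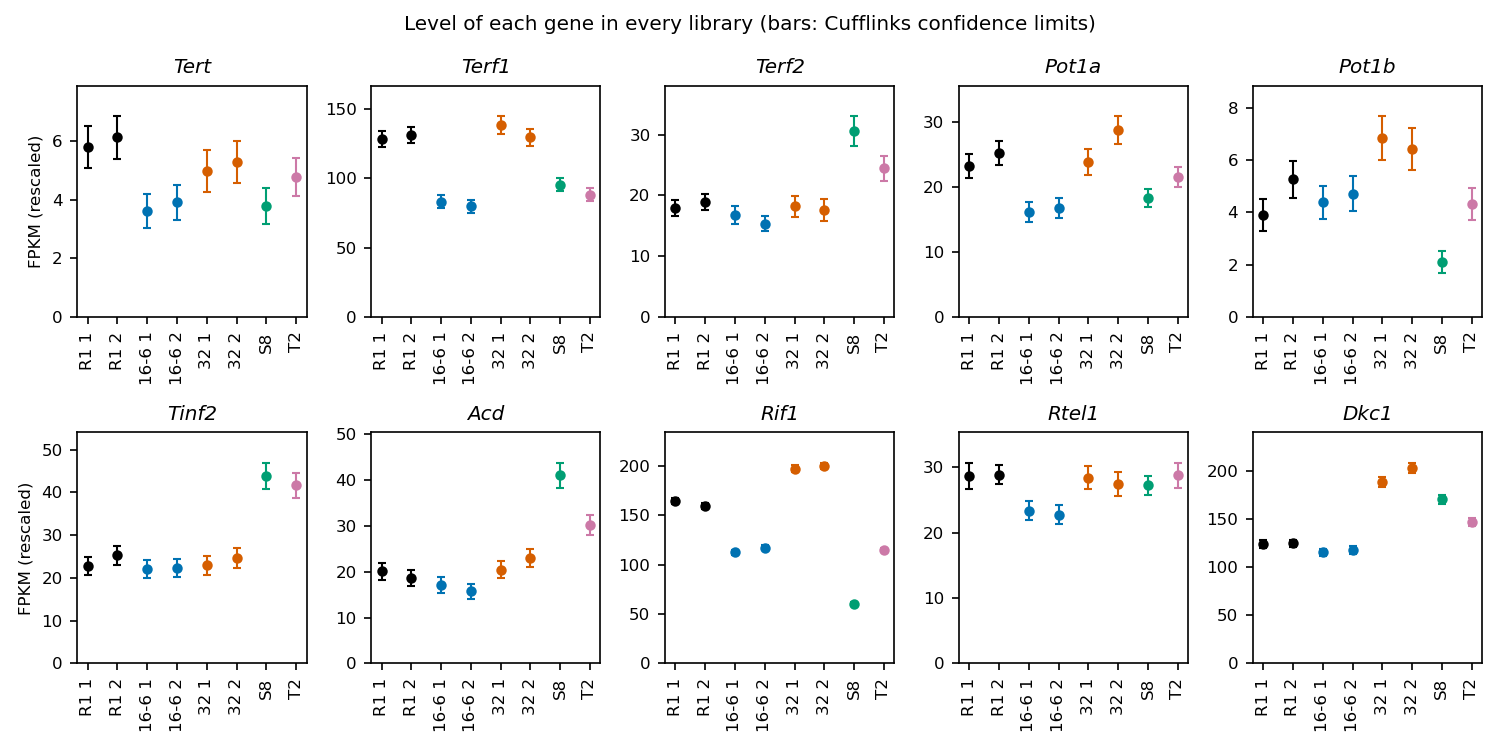
FPKM (rescaled, linear axis from 0) of each of the 10 genes in the 8 libraries, coloured by line, with bars for the Cufflinks confidence limits. Tinf2 and Acd stood highest in S8 and T2, Rif1 ran from 60.5 in S8 to 200.0 in 32, and Rtel1 stayed between 22.8 and 28.9.

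Replicate libraries of a line were close for these genes. Over 4921 to 5308 genes, the variance between replicates was 1.34 times that of counting alone in R1, 1.08 in 16-6 and 1.29 in 32. These genes had whole-number implied fragments, at least 20 in the pair and under 2000 in each library. Rif1, Dkc1, Terf1, Terf2 and Rtel1, among others, were outside this set. The p-values rest on the small spread between replicates, which may not hold the variation between separate cultures. The largest difference between replicates on the log2 scale was 0.35, for Pot1b in R1, followed by 0.26 for Pot1a in 32, and the median over genes and lines was 0.07. The line means ranged over 0.31 for Rtel1 to 1.70 for Rif1. For each of the 10 genes the range between lines was larger than its largest replicate difference. The share of all genes with such a range was not counted. The median range between line means was 0.82 for the 10 and 0.82 for all genes, so this does not set the 10 apart. The spread of S8 and T2 themselves is unknown, and their tests assume that a single library varies like those of the replicated lines.

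Tert (mm9 chr13:73764449-73786489, plus strand) encodes the catalytic subunit, and its mRNA was scarce. FPKM was 5.80 and 6.14 in R1, 3.63 and 3.92 in 16-6, 4.99 and 5.30 in 32, 3.79 in S8 and 4.78 in T2, resting on 157 to 285 fragments per library. Each iPSC library lay below both R1 libraries, and the libraries of 16-6 and S8 also lay below those of 32 and T2. Against R1, Tert was lower, with a log2 difference of -0.55 ± 0.07 in 16-6 (adjusted p = 0.00224) and -0.54 ± 0.08 in S8 (adjusted p = 0.00314), and both differences passed the threshold under each alternative run. The difference of -0.27 ± 0.08 in T2 (adjusted p = 0.0396) was past the threshold in only 4 of 14 alternatives and was lost without any 1 of the 6 replicate libraries, at log2 differences of -0.31 to -0.23. The difference of -0.18 in 32 missed the threshold (95% interval -0.35 to -0.01), but was -0.46 (adjusted p = 0.00385) with every library scaled to the same total, -0.18 (adjusted p = 0.0496) without the mean-variance trend, and 0.13 with quantile normalization. In order of level the lines were R1, 32, T2, S8 and 16-6, and no line differed from its neighbour in that order.

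The 250 bases before the RefSeq start of Tert (GRCm38.p6 chr13:73626661-73626910, plus strand) are shown because Tert encodes the catalytic subunit. Capitals mark GC boxes, the letters GGGCGG on either strand, which begin 51 and 14 bases before the start and are known as sites of the Sp1 family.
Tert: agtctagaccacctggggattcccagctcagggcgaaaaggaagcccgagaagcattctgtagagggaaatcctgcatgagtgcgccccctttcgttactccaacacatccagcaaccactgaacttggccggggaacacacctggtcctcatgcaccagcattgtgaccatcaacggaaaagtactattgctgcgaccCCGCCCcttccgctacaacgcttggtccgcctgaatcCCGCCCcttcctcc
A GC box is common, present in 32.7% of 32851 windows of this length, and the GC content of the Tert window was 57.2% against a median of 52.4%. No E-box with the letters CACGTG, a Myc family motif found in 6.02% of windows, was in this window.

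Dkc1 (mm9 chrX:72341193-72355115, plus strand) is X-linked and encodes dyskerin, which also modifies ribosomal RNA. FPKM was 124 and 125 in R1, 116 and 118 in 16-6, 188 and 203 in 32, 171 in S8 and 147 in T2. Here 16-6 was lowest, just under R1, and both libraries of 32 were above all others, with S8 and T2 in between. Dkc1 was higher than in R1 by 0.65 ± 0.05 in 32 (adjusted p = 0.000384), 0.45 ± 0.06 in S8 (adjusted p = 0.00169) and 0.24 ± 0.06 in T2 (adjusted p = 0.0182). The value for T2 missed the threshold when either R1 library was left out, at 0.24 without replicate 1 and 0.25 without replicate 2. The 16-6 difference of -0.09 did not pass (95% interval -0.21 to 0.03). The Dkc1 entry shares 44 bases with Mpp1 on the other strand, and reads there cannot be assigned to either gene if the libraries were not stranded, which the sources used here do not state.

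Terf1 (mm9 chr1:15795739-15833510, plus strand) encodes TRF1, a double-strand binding protein of shelterin that is abundant in pluripotent cells. FPKM was 129 and 131 in R1, 83.3 and 79.8 in 16-6, 139 and 129.7 in 32, 95.6 in S8 and 88.2 in T2. Sorted by level, the libraries of R1 and 32 lay above those of 16-6, S8 and T2. This split was drawn from the same values, and the share of all genes that split so was not counted. Terf1 fell in 16-6 (-0.67 ± 0.05, adjusted p = 0.000483), in T2 (-0.55 ± 0.06, adjusted p = 0.00145) and in S8 (-0.44 ± 0.06, adjusted p = 0.00199), under each alternative run. The difference of 32 was 0.05 (95% interval -0.08 to 0.17).

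Terf2 (mm9 chr8:109593302-109620445, minus strand) encodes TRF2, which protects ends from being joined. FPKM was 17.9 and 18.9 in R1, 16.8 and 15.3 in 16-6, 18.2 and 17.6 in 32, 30.6 in S8 and 24.5 in T2. S8 and T2 lay above all replicated libraries, whose values overlapped between R1 and 32. Terf2 rose in S8 by 0.70 ± 0.07 (adjusted p = 0.000864) and in T2 by 0.39 ± 0.07 (adjusted p = 0.00833), and S8 exceeded T2 by 0.31 (adjusted p = 0.0432). That last difference passed in only 2 of 14 alternatives and was lost without any 1 of the 6 replicate libraries, at the same value. It was 0.06 with every library scaled to the same total and 0.21 with the trend on GC content and transcript length removed. The difference of -0.19 in 16-6 (adjusted p = 0.0462) passed in 6 of 16 alternatives and was lost without R1 replicate 1 (-0.23), R1 replicate 2 (-0.15), 16-6 replicate 2 (-0.13) or either library of 32 (-0.19). Terf1 and Terf2, which encode paralogous proteins, thus stood on opposite sides of R1 in both S8 and T2.

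The mouse genome has a pair of POT1 genes, and both products bind the overhang, POT1a mainly to prevent a damage signal and POT1b to limit trimming of the end. For Pot1a (mm9 chr6:25693735-25759226, minus strand), FPKM was 23.3 and 25.3 in R1, 16.1 and 16.8 in 16-6, 23.8 and 28.8 in 32, 18.3 in S8 and 21.6 in T2. The 16-6 libraries were the lowest and did not overlap those of R1 or 32, which overlapped each other. Pot1a was lower than in R1, at -0.53 ± 0.10 in 16-6 (adjusted p = 0.00808), although without 16-6 replicate 1 the value of -0.50 just missed the threshold. In S8 the difference of -0.39 ± 0.12 (adjusted p = 0.0361) passed in 7 of 14 alternatives and was lost without R1 replicate 1 (-0.44), R1 replicate 2 (-0.33) or either library of 16-6 (-0.39).

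For Pot1b (mm9 chr17:55791323-55851926, minus strand), FPKM was 3.90 and 5.27 in R1, 4.38 and 4.72 in 16-6, 6.85 and 6.44 in 32, 2.10 in S8 and 4.32 in T2, on 95 to 267 fragments. The S8 value was below all others and the 32 values above all others, while R1, 16-6 and T2 overlapped. Pot1b was lower in S8, at -0.84 ± 0.16 (adjusted p = 0.00651), under each alternative run. It was higher in 32 by 0.46 ± 0.13 (adjusted p = 0.0276), a call kept in 8 of 16 alternatives and lost without R1 replicate 1 (0.29), either 16-6 library (0.46), 32 replicate 1 (0.43) or 32 replicate 2 (0.50). The contrast between 32 and S8 was 1.30 ± 0.16 (adjusted p = 0.00177), a 2-fold call, as were 11.8% of all genes. Lines 32 and S8 were picked here as the highest and lowest for Pot1b, while 11.8% is the share for a fixed pair. For any difference between the 5 lines, 34.5% of all genes were called. In 16-6 Pot1b was level with R1 at 0.00 (95% interval -0.33 to 0.33), where Pot1a was low.

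Tinf2 and Acd encode the bridging proteins TIN2 and TPP1, and both were raised in S8 and T2. For Tinf2 (mm9 chr14:56297918-56300654, minus strand), FPKM was 22.8 and 25.3 in R1, 22.0 and 22.3 in 16-6, 22.9 and 24.7 in 32, 43.9 in S8 and 41.6 in T2. The replicated libraries lay within 22.0 to 25.3, and S8 and T2 were far above them. Tinf2 rose by 0.84 ± 0.08 in S8 (adjusted p = 0.000656) and by 0.77 ± 0.08 in T2 (adjusted p = 0.00140), or 1.80-fold and 1.70-fold on the FPKM + 1 scale. The difference between S8 and T2 did not pass the threshold (0.08, 95% interval -0.16 to 0.31), nor did those of 16-6 (-0.11, -0.28 to 0.06) or 32 (-0.01, -0.18 to 0.16) from R1.

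For Acd (mm9 chr8:108222059-108224995, minus strand), FPKM was 20.1 and 18.6 in R1, 17.1 and 15.7 in 16-6, 20.5 and 23.0 in 32, 41.1 in S8 and 30.2 in T2. The S8 value was 2.07-fold that of R1 on the FPKM + 1 scale, T2 lay between, and 16-6 was lowest without overlap with any other line. Acd rose by 1.05 ± 0.10 in S8 (adjusted p = 0.000592), a 2-fold call, and by 0.62 ± 0.10 in T2 (adjusted p = 0.00462). The 2-fold call in S8 was lost without R1 replicate 2 (1.00, just under 2-fold), with quantile normalization (0.98), with the same total (0.91) and with the trend on GC content and transcript length removed (0.56), each still past the threshold on adjusted p. Acd was also called between 16-6 and S8 (-1.28 ± 0.10, adjusted p = 0.000337), as were 17.3% of all genes. The gap between S8 and T2 (0.43, adjusted p = 0.0386) passed in 5 of 14 alternatives and was lost without either R1 library or either 16-6 library, at the same value. It was 0.07 (adjusted p = 0.723) with the trend on GC content and transcript length removed and 0.18 (adjusted p = 0.383) with every library scaled to the same total. The contrast of 16-6 with S8 joins the lowest and highest lines for Acd, picked from its values, while 17.3% is the share for a fixed pair. The entry for Acd shares 7 bases with Rltpr on the opposite strand.

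Terf2, Tinf2 and Acd moved together over the 8 libraries, with Pearson r of log2(FPKM + 1) of 0.95 for Terf2 and Tinf2, 0.96 for Terf2 and Acd, and 0.93 for Tinf2 and Acd. These are descriptions over libraries in which S8 and T2 hold the 2 highest values of each gene. The 250 bases before the RefSeq start of each of the 3 genes are shown to set them side by side (GRCm38.p6, Terf2 chr8:107096546-107096795, minus strand, Tinf2 chr14:55681818-55682067, minus strand, Acd chr8:105701229-105701478, minus strand), with a cAMP response element, TGACGTCA, in capitals.
Terf2: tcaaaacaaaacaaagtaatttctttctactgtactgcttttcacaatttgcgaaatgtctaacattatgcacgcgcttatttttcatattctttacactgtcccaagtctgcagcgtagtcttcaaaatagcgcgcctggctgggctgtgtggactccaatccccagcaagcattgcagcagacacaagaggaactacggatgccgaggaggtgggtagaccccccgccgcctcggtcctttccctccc
Tinf2: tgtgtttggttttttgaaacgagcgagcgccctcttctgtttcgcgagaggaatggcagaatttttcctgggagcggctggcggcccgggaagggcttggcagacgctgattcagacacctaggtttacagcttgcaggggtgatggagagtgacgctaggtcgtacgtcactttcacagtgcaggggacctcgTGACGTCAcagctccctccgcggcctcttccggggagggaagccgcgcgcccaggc
Acd: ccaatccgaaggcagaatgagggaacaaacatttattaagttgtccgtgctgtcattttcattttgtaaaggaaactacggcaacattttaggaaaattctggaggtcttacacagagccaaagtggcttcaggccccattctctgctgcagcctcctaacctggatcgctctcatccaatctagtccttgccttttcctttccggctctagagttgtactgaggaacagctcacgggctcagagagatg
The element begins 56 bases before the start of Tinf2 and is in 1.55% of all windows of this length. None of the 3 windows held a GC box or the E-box letters, so they shared none of the 3 motifs searched. Their GC content was 48.8% for Terf2, 60.4% for Tinf2 and 46.8% for Acd. Of the 10 genes, 8 had a window, all but Terf1 and Rif1, and besides Tert a GC box was found for Pot1a (117 bases before the start), Pot1b (8 bases) and Rtel1 (39 bases), and the E-box for none. A motif match is a description and not a binding site.

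Rif1 (mm9 chr2:51928357-51977901, plus strand) encodes a large protein first known from yeast telomeres that also times DNA replication, and it is highly expressed in ESCs. FPKM was 165 and 159.7 in R1, 113 and 117 in 16-6, 197 and 200.0 in 32, 60.5 in S8 and 115 in T2. Its levels were the most varied of the 10 genes, with 32 highest, then R1, then 16-6 and T2 level with each other, and S8 lowest. Each step in that order exceeded the spread except that from 16-6 to T2. Rif1 fell in S8, with a log2 difference of -1.41 ± 0.05 (adjusted p = 7.04e-05), to 0.377 of its R1 level on the FPKM + 1 scale, a 2-fold call. With the trend on GC content and transcript length removed the difference was -0.57, which ended the 2-fold call and stayed past the threshold on adjusted p. It also fell in 16-6 (-0.50 ± 0.04, adjusted p = 0.000582) and T2 (-0.50 ± 0.05, adjusted p = 0.00108). It was higher in 32 by 0.29 ± 0.04 (adjusted p = 0.00237), but at -0.05 after scaling every library to the same total, where the median of all genes shifted to -0.31, and at 0.08 after quantile normalization it did not pass. The contrast between 32 and S8, picked as the highest and lowest lines, was 1.70 ± 0.05 (adjusted p = 7.90e-05), 3.25-fold on the FPKM + 1 scale.

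Rtel1 (mm9 chr2:181054429-181091321, plus strand) encodes a helicase that unwinds telomeric loops. FPKM was 28.6 and 28.9 in R1, 23.3 and 22.8 in 16-6, 28.4 and 27.4 in 32, 27.2 in S8 and 28.8 in T2, the smallest ratio of highest to lowest value (1.27) of the 10 genes. The 2 libraries of 16-6 lay below the other 6, whose values overlapped. Rtel1 was lower in 16-6, at -0.31 ± 0.04 (adjusted p = 0.00259), while the differences of 32, S8 and T2 were -0.04, -0.08 and 0.00, with 95% intervals of -0.14 to 0.06, -0.20 to 0.05 and -0.12 to 0.12.

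**Figure D2:**
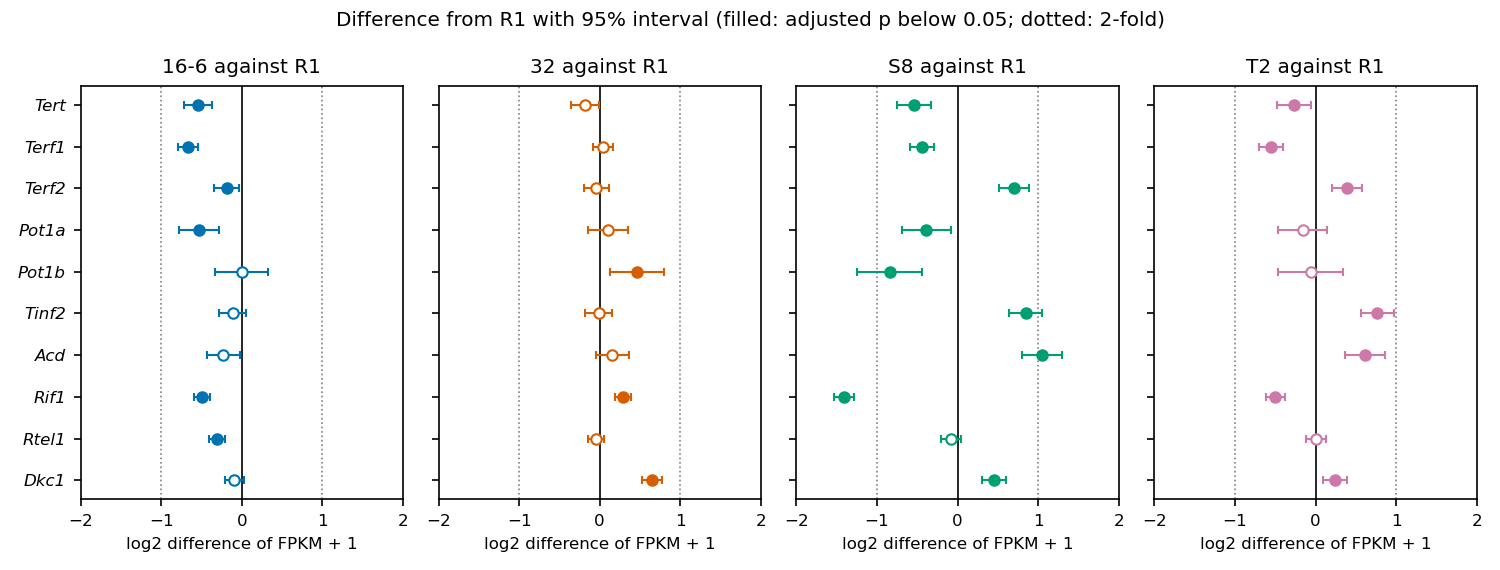
Difference from R1 on the log2(FPKM + 1) scale for the 10 genes in each iPSC line, with 95% intervals from limma. Filled points have an adjusted p below 0.05 and dotted lines mark 2-fold, which Acd (1.05) and Rif1 (-1.41) in S8 passed.

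The comparisons with R1 asked how far each iPSC line departs from an ESC line in these genes. None of the 10 was called in 16-6, against 7.11% of all genes tested. An unadjusted limma p below 0.05 was found for 7 of the 10, against 61.4% of all genes. By adjusted p alone, 0 of the 10 were higher and 6 lower (Tert, Terf1, Terf2, Pot1a, Rif1 and Rtel1), against 25.7% and 29.9% of all genes. The median log2 difference of the 10 was -0.27, against -0.03 for all genes. In 16-6, 8 of the 8 pluripotency markers were lower than in R1 by adjusted p, and 5 of the 10 fibroblast markers were called higher and 2 lower.

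In 32, none of the 10 was called, against 9.77% of all genes. Of the 10, 4 had an unadjusted limma p below 0.05, against 66.2% of all genes. Dkc1, Pot1b and Rif1 were higher by adjusted p and none was lower, against 28.6% and 32.9% of all genes. The median of the 10 was 0.08, against -0.02. All 10 fibroblast markers were called lower in 32 than in R1, and of the 8 pluripotency markers 2 were higher and 3 lower by adjusted p. Scaling to the same total moved the median of all genes to -0.31 and that of the 10 genes to -0.25, and by that scaling 1 of the 10 was higher and 5 lower, against 7.76% and 55.1% of all genes.

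In S8, 2 of the 10 genes were called, Acd higher and Rif1 lower, against 16.7% of all genes. By adjusted p alone, Terf2, Tinf2, Acd and Dkc1 were higher and Tert, Terf1, Pot1a, Pot1b and Rif1 lower, 4 and 5 of the 10 against 32.1% and 34.6% of all genes. The median was -0.23, against -0.03. Without R1 replicate 2, Acd fell just short of 2-fold at 1.00 and 1 gene was called, and without R1 replicate 1, Pot1b reached -1.02 and 3 were called. Of the fibroblast markers 9 were lower in S8 by adjusted p, and of the pluripotency markers 2 were higher and 4 lower.

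In T2, none of the 10 was called, against 10.5% of all genes. Of the 10, 7 had an unadjusted limma p below 0.05, against 63.3% of all genes. Terf2, Tinf2, Acd and Dkc1 were higher and Tert, Terf1 and Rif1 lower by adjusted p, 4 and 3 of the 10 against 27% and 30.9% of all genes, with a median of -0.03, the same as that of all genes. Of the fibroblast markers, 2 were higher and 8 lower by adjusted p in T2, and of the 8 pluripotency markers 2 were higher and 5 lower.

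Between S8 and T2, none of the 10 was called, against 2.75% of all genes. An unadjusted limma p below 0.05 was found for 6, against 47.2% of all genes. By adjusted p, Terf2 and Acd were higher in S8 and Pot1b (-0.78) and Rif1 (-0.91) lower, against 34.5% of all genes. This contrast had the strongest trend with transcript length of those run (Spearman -0.58 with length and 0.38 with GC content over 12963 genes), and with the trend removed Acd was 0.07, Terf2 0.21, Rif1 -0.29 and Pot1b -0.66, of which Rif1 and Pot1b passed. The Pot1b difference passed in 8 of 14 alternatives and was lost, at the same value, without either 16-6 library or either 32 library. Both lines have 1 library, so neither difference has a replicate of its own.

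Averaged over the 4 iPSC lines, the difference from R1 gave no call among the 10, against 6.41% of all genes. An unadjusted limma p below 0.05 was found for 9 of the 10, against 68.9% of all genes. By adjusted p, Terf2, Tinf2, Acd and Dkc1 were higher and Tert, Terf1, Pot1a, Rif1 and Rtel1 lower, 9 of the 10 against 65% of all genes. Tert (-0.38 ± 0.06), Terf1 (-0.40 ± 0.04) and Dkc1 (0.31 ± 0.04) kept their side of the threshold under each alternative run. The increases of Terf2 (0.22), Tinf2 (0.37) and Acd (0.40) turned in a fit of only R1, 16-6 and 32, where they were -0.11, -0.06 and -0.03. Terf2 also missed the threshold without R1 replicate 1 (0.18). Pot1a was lost without R1 replicate 1 (-0.30), R1 replicate 2 (-0.19), 16-6 replicate 1 (-0.24) or 16-6 replicate 2 (-0.25), and Rtel1 (-0.11) without any 1 library other than 32 replicate 1 (-0.11 to -0.10).

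Lines 16-6 and 32 both derive from mesoderm and both have replicates. None of the 10 was called between them, against 10.3% of all genes. Of the 10, 8 had an unadjusted limma p below 0.05, against 65.2% of all genes. By adjusted p, 8 of the 10 were lower in 16-6 and none higher, against 32.9% and 27.5% of all genes, with a median of -0.42 against -0.06. The differences that passed were Rif1 (-0.79), Dkc1 (-0.74), Terf1 (-0.71), Pot1a (-0.64), Pot1b (-0.46), Acd (-0.39), Tert (-0.36) and Rtel1 (-0.26). Only Terf2 (-0.15, 95% interval -0.30 to 0.01) and Tinf2 (-0.10, -0.27 to 0.07) did not pass. Pot1b was lost without 16-6 replicate 1 (-0.42), 16-6 replicate 2 (-0.51), 32 replicate 1 (-0.42) or 32 replicate 2 (-0.50), and Acd without 16-6 replicate 2 (-0.33). After scaling to the same total, where the median of all genes was 0.21, 3 of the 10 were lower and 2 higher, against 8.43% and 45% of all genes. All 10 fibroblast markers were called higher in 16-6 than in 32, and 8 of 8 pluripotency markers were lower by adjusted p.

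Asked of all 5 lines at once by a moderated F test, 3 of the 10 genes were called, Acd, Pot1b and Rif1, against 34.5% of all genes. All 10 passed by adjusted p alone, against 88.4% of all genes, so passing this test sets these genes apart little. The median range between line means was 0.82 for the 10 and 0.82 for all genes.

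S8 differed from the other lines by transcript length and GC content over the whole transcriptome, and Acd and Rif1 lay near opposite ends of that trend. Over 12963 genes, the Spearman correlation of the S8 difference from R1 was -0.34 with length and 0.37 with GC content, given as a description across genes, which are not replicates. The 10% of genes with the shortest transcripts had a median of 0.24 and the 10% with the longest -0.62. Rif1 has the longest and most AT-rich transcript of the 10 (8502 bases, 39.3% GC), and Acd the shortest and most GC-rich (1425 bases, 58.0% GC). After removal of the trend in every library, S8 against R1 was -0.57 for Rif1 and 0.56 for Acd, both under 2-fold and both past the threshold. Tinf2 (0.67), Terf2 (0.58), Dkc1 (0.60), Tert (-0.66), Pot1b (-0.64) and Terf1 (-0.38) also stayed past it, and Pot1a (-0.15) did not. In T2 the correlations were -0.03 with length and 0.19 with GC content, and the values after removal were 0.75 for Tinf2, 0.49 for Acd, 0.37 for Terf2 and -0.28 for Rif1, all past the threshold. In 16-6 and 32 the correlations lay between -0.07 and 0.13. Differences in library preparation and in the line cannot be told apart for S8 and T2.

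**Figure D3:**
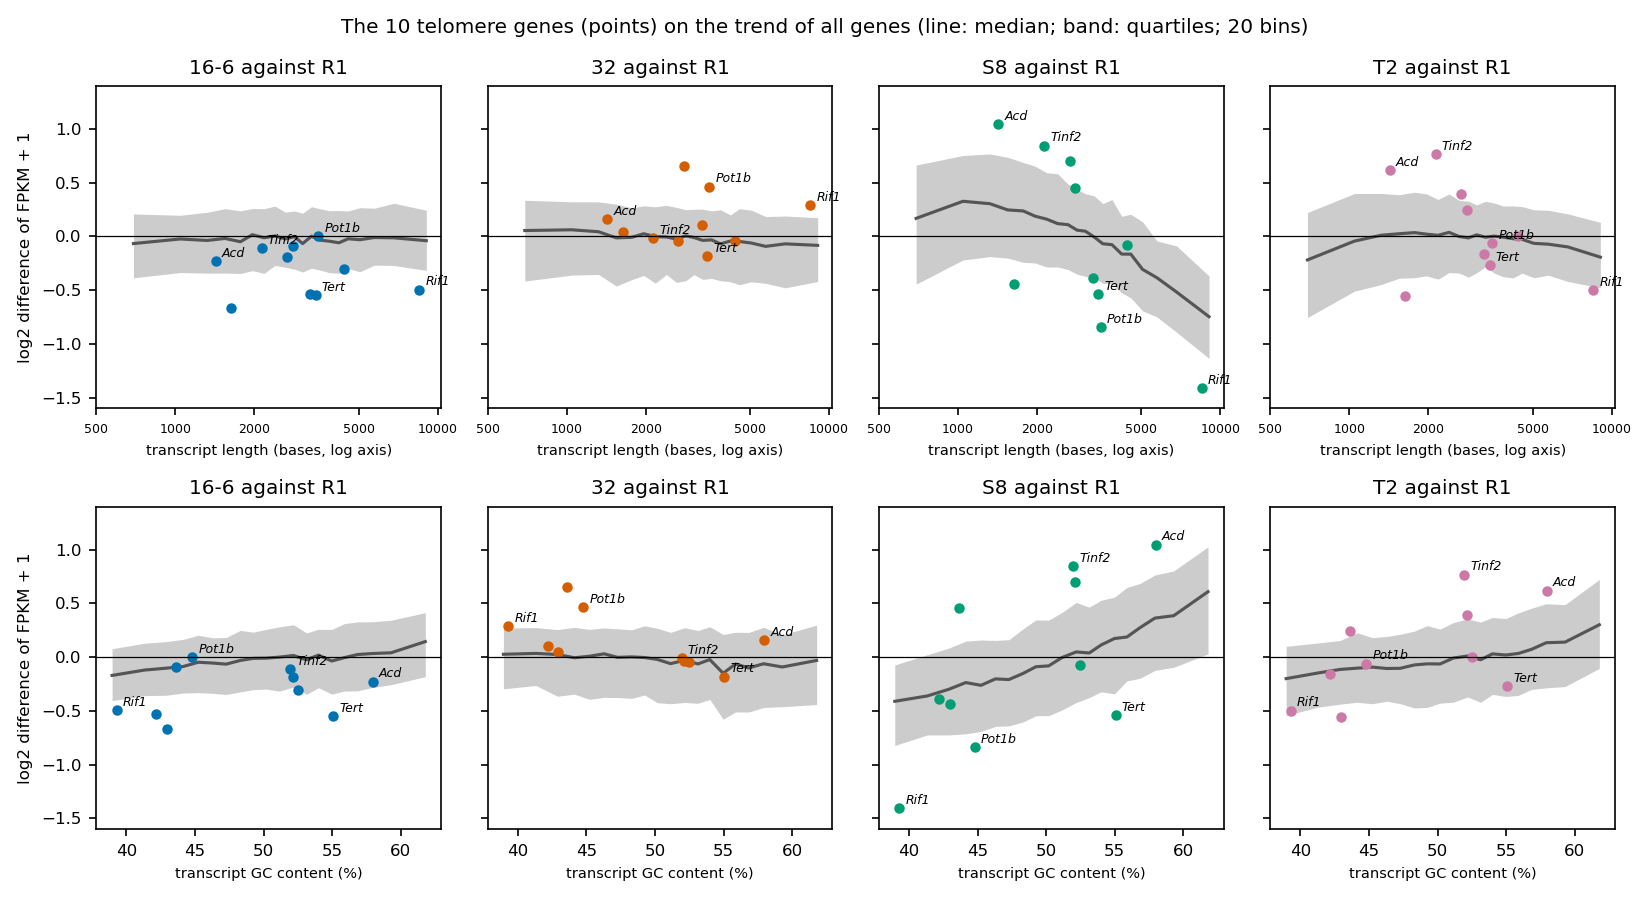
Difference from R1 on the log2(FPKM + 1) scale against transcript length (top, log axis, bases) and transcript GC content (bottom, percent) for each iPSC line. Points are the 10 genes, the line is the median and the band the quartiles of all genes in 20 bins. In S8 the median fell with length, with Acd (1.05) at the short end and Rif1 (-1.41) at the long end.

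The 3 lists of related genes hold 34 genes and were read in the same fit. They cover telomerase assembly (12 genes), shelterin partners and end processing (18) and telomeric chromatin (4), and all 34 were tested. In 16-6, 32 and T2 no gene of the 34 was called, against 7.11%, 9.77% and 10.5% of all genes. In these lines 23, 24 and 25 had an unadjusted limma p below 0.05, against 61.4%, 66.2% and 63.3% of all genes. In S8, 5 were called higher and 4 lower, against the 6.93% and 9.74% of all genes called in these directions. Of the 5 called higher, 1 was Terc, on only 9 implied fragments in S8 and 3 in R1. By adjusted p, 7 of the 34 were higher and 14 lower in 16-6, 18 and 4 in 32, 17 and 10 in S8, and 17 and 8 in T2. Over all genes the shares higher and lower were 25.7% and 29.9% in 16-6, 28.6% and 32.9% in 32, 32.1% and 34.6% in S8, and 27% and 30.9% in T2.

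Terf2ip, which encodes the shelterin subunit RAP1, completed the complex. FPKM was 4.86 and 5.10 in R1, 5.74 and 5.89 in 16-6, 7.11 and 7.40 in 32, 11.5 in S8 and 9.65 in T2. R1 was lowest, and each iPSC line lay above it without overlap. The differences from R1 were 0.19 ± 0.05, 0.47 ± 0.05, 1.06 ± 0.07 and 0.83 ± 0.07 in 16-6, 32, S8 and T2 (adjusted p = 0.0350, 0.00162, 0.000215 and 0.000715). RAP1 binds TRF2, and Terf2ip, like Terf2, Tinf2 and Acd, was higher than in R1 in both S8 and T2.

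Of the assembly factors, Nhp2, a partner of dyskerin in the same RNA-protein particle, was called higher in S8 (1.03 ± 0.07), and Tep1, a telomerase-associated protein, was called lower (-1.18 ± 0.10). FPKM of Tep1 was 5.13 and 5.51 in R1, 3.67 and 4.08 in 16-6, 2.86 and 2.52 in 32, 1.79 in S8 and 2.73 in T2, and each iPSC line lay below R1. Terc, the telomerase RNA, was listed at FPKM of 0.995 and 0.465 in R1, 1.00 and 0.999 in 16-6, 2.68 and 1.60 in 32, 5.31 in S8 and 2.04 in T2, on only 1 to 9 fragments per library. Its fitted S8 difference was 1.88, and the ratio of S8 to R1 was 7.35 with an exact 95% counting interval of 1.84 to 42.2. Libraries from poly(A) selected RNA hold little of an RNA without a poly(A) tail, so these values give no firm level for Terc.

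Among the partners and chromatin factors called in S8, Ten1 (listed as 2310004N24Rik), of the CST complex that fills in the C-rich strand, was higher (1.20 ± 0.15), as was Daxx (1.12 ± 0.04), a histone H3.3 chaperone. Its partner Atrx was lower (-1.43 ± 0.06), as were Hmbox1 (-1.85 ± 0.09), a protein that binds telomeric repeats, and Tnks (-2.06 ± 0.07), a tankyrase, which adds poly(ADP-ribose) to proteins. FPKM of Tnks was 31.9 and 32.8 in R1, 26.3 and 28.7 in 16-6, 30.7 and 30.3 in 32, 6.99 in S8 and 25.2 in T2, and S8 stood far below all others. After removal of the length and GC trend, Tnks (-1.62), Hmbox1 (-1.79) and Terf2ip (1.20) kept a 2-fold call in S8, and Atrx (-0.48), Daxx (0.83), Ten1 (0.79), Nhp2 (0.69) and Tep1 (-0.75) were under 2-fold. Naf1, an assembly factor of the same particle, reached 1.04 there, from 0.98 before.

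**Figure D4:**
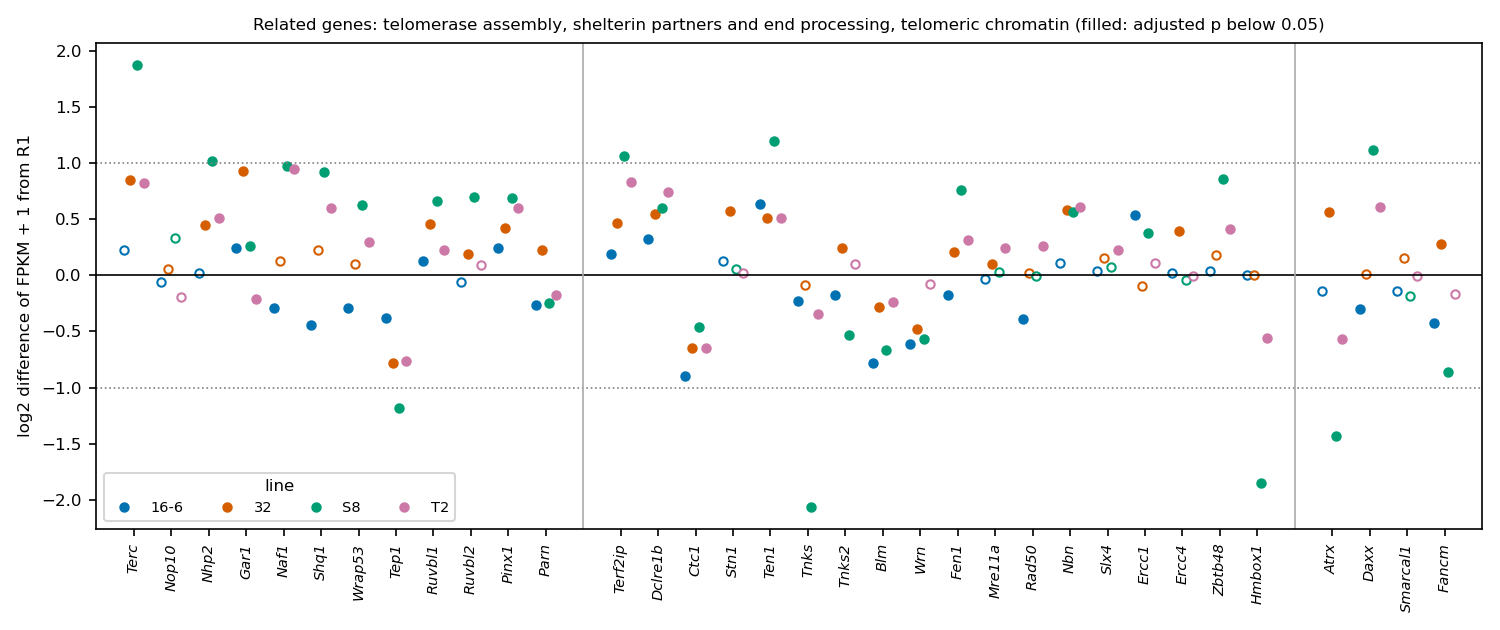
Difference from R1 on the log2(FPKM + 1) scale for the 34 related genes in the 4 iPSC lines, ordered by list, with vertical lines between lists. Filled points have an adjusted p below 0.05 and dotted lines mark 2-fold, which only S8 points pass.

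Among 13683 other tested genes, those whose level followed Tert most closely over the 8 libraries included Mir17hg, Kif23, Cpeb3 and Nid2, with Pearson r of log2(FPKM + 1) of 0.982 to 0.986. Of all tested genes, 1.29% had an r over 0.9. Mir17hg, the host transcript of a microRNA cluster, had a mean FPKM of 52.8 in R1, 34.0 in 16-6, 45.9 in 32, 36.5 in S8 and 42.8 in T2, the same order of lines as Tert. Within the 10 genes, Tert was closest to Pot1a (r = 0.88) and Terf1 (r = 0.83), and Pot1b to Rif1 (r = 0.91). The points share libraries and line differences, and r is given as a description only.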

How the data were processed

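Paired RNA-seq libraries of oligo(dT)-enriched RNA were mapped by the authors to mm9 with TopHat2 (2.0.4 in the submitters' processing notes), unique alignments were kept, and Cufflinks (2.0.0 in those notes) gave the deposited FPKM and confidence limits for each library. The labels give the tissue of every sample as embryo, although the sources are ESC and iPSC lines. Here every value was divided by 12725.7, which sets the median library total to 1000000. Fragments were implied from the confidence limits as if these held counting error only. This fails for some genes, so implied fragments are not read counts. Rtel1 in R1 had FPKM of 28.6 and 28.9 but 861 and 1658 implied fragments. The 13693 genes that reached an FPKM of 1 in any library were fitted with limma 3.58.1 in R 4.3.3 on log2(FPKM + 1), with 5 lines, 8 libraries, 3 residual degrees of freedom and a mean-variance trend. Nothing ties the replicates to separate cultures beyond the study calling them biological, so p-values measure the spread between these libraries. An exact permutation test of 2 against 2 cannot go below 0.333. The rule for the members uses no measured value, but they and the lists were chosen with earlier results of these data known. Named genes were the 10 members, related genes called in any line, Terc, Terf2ip and Tep1, and the 5 genes most like Tert, of which 1 is not reported here. Promoter motifs were chosen after the sequences were seen, and the sequences are from RefSeq. Alternatives covered the pseudocount, filter, scaling, trend, libraries left out and the replicate block. Counting the 16-6 libraries as 1 sample and removing the trend on GC content and length were added after seeing the data. The scripts were tested on simulated data.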

Additional observations from a re-analysis of the deposited data

Results flagged for a closer look

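For 3 of the 10 genes, effects against R1 differed by at least 2-fold between lines, tested by the contrast between the lines, in which R1 cancels. By adjusted p alone all 10 differed between some lines, and 34.5% of all genes were called for any difference. Rif1 was higher in 32 than in S8 by 1.70 on the log2(FPKM + 1) scale, Pot1b was higher in 32 than in S8 by 1.30, and Acd was lower in 16-6 than in S8, at -1.28. Each contrast was past the threshold in all 14 alternatives run for it. After removal of the trend on GC content and length they were 0.87, 1.10 and -0.76. S8 had 1 library, and the part of the length trend and of that library in these values was not tested.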

How the results depend on the processing

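Of the 65 differences past the threshold, 44 kept their direction and their side of it under every alternative run for them, and over all alternatives 860 values were on the same side, 97 missed the threshold and 8 turned. Of the 18 differences not past it, 9 values passed and 32 turned, most of them near 0. The cause was not tested except where stated. The 65 differences include those of related genes and Zscan4 genes that had been called in the fit described above. Each of those kept its side under every alternative, so the share kept among the telomere genes alone was lower. Keeping a side refers to adjusted p alone. The 2-fold calls of Acd and Rif1 in S8 were lost under some alternatives that count here as kept.

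Among the 10 genes, with no fold minimum 6 passed in 16-6, 3 in 32, 9 in S8 and 7 in T2 against R1, 9 for the mean of the iPSC lines, 8 between 16-6 and 32, and 10 for any difference. In S8 the 2 calls became 1 (Rif1) with quantile normalization, where Acd was 0.98, and 1 with every library scaled to the same total, where Acd was 0.91, and 0 with the trend on GC content and length removed. With a pseudocount of 0.1 they became 3, with Pot1b at -1.08, and leaving out 1 library gave 1 to 3. The 3 calls for any difference became 1 with that trend removed, 4 with the same total, and 0 with only the 6 libraries of R1, 16-6 and 32, where S8 and T2 are left out, and 0 in the replicate block on those libraries. The replicate numbers did not pair the libraries (correlation of deviations -0.10, 0.00 and 0.03), and in the block the difference from R1 averaged over iPSC lines was -0.11 for Terf2, 0.23 for Pot1b, -0.062 for Tinf2 and -0.034 for Acd, the same values as with the 6 libraries without a block, and -0.10 for Rif1, which missed the threshold.

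With the same total, which moved the median of all genes to -0.31 in 32 against R1, to 0.21 in 16-6 against 32, to -0.15 in S8 against R1 and to -0.11 for the mean, Pot1b in 16-6 was -0.0011. In 32, Tert (-0.46), Terf2 (-0.36), Tinf2 (-0.34) and Rtel1 (-0.37) passed as lower, and Terf1 was -0.29, Pot1a -0.22, Acd -0.16 and Rif1 -0.046, in T2 Pot1b was 0.041, and between 16-6 and 32 Terf2 was 0.17, Tinf2 0.22 and Rtel1 0.056. With quantile normalization, Tert was 0.13, Terf1 -0.18, Terf2 0.031 and Tinf2 0.015 in 32, Pot1b 0.058 and Rtel1 -0.017 in T2, and Pot1b 0.065 for the mean. With the trend removed, Dkc1 was 0.031 in 16-6, Terf2 0.0093, Tinf2 0.031 and Rtel1 0.061 in 32, Rtel1 0.013 in S8, and Pot1b 0.020 and Rtel1 -0.0033 in T2. Leaving out 1 library, the difference from R1 ranged over -0.18 to 0.18 for Pot1b in 16-6, -0.0029 to 0.093 for Terf1 in 32, -0.023 to 0.24 for Pot1a in 32, -0.083 to 0.059 for Tinf2 in 32, -0.24 to 0.12 for Pot1b in T2, -0.0056 to 0.0065 for Rtel1 in T2 and -0.29 to 0.068 for Pot1b averaged over iPSC lines.

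Over all genes, a pseudocount of 0.1 raised the calls from 974 to 1690 in 16-6, from 1338 to 2258 in 32, from 1437 to 2198 in T2, from 878 to 1664 for the mean and from 376 to 794 between S8 and T2. A minimum FPKM of 1 in every library lowered them to 565, 740, 940 and 462 in the first 4 of these, and from 1412 to 859 between 16-6 and 32. With no fold minimum they were 7610, 8428, 7932, 8907 and 4725 in the same 5, 9127 in S8 (from 2283), 8265 between 16-6 and 32 and 12109 for any difference (from 4720). Removing the trend lowered S8 against R1 to 1501, 32 against S8 from 1621 to 888, and S8 against T2 to 149. The same total gave 590 for S8 against T2, and any difference was 2246 with 6 libraries and 2238 in the block. Higher calls were 94 of 1771 in 32 with the same total (211 of 1338 before), 683 of 2311 in S8 (949 of 2283) and 732 of 1512 in T2 (541 of 1437). With quantile normalization they were 413 of 1144 in 32, 974 of 1234 between 16-6 and 32 (1263 of 1412) and 358 of 850 for the mean (254 of 878).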

Other observations

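Zscan4c, Zscan4d and Zscan4f, genes of a cluster that marks an early-embryo-like state in which ESC telomeres lengthen, were lower than in R1 in both replicated iPSC lines. The fitted differences were -1.62, -1.55 and -1.52 in 16-6, and -1.04, -1.02 and -1.07 in 32. In T2 they were -0.70, -0.77 and -1.04, all past the threshold on adjusted p from limma. In S8 they were -0.14, -0.25 and -0.25 and did not pass, with FPKM of 2.10, 1.78 and 1.84. These paralogs are nearly identical, so reads may be split between them. Zscan4c rested on 3 and 4 fragments in 16-6.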
